A study of Mus musculus with 24 samples.

Results

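The subject is a set of 133 DNA barcodes that were found in both macrophage subsets of the heart and stayed below a set level everywhere else that was sampled in the same mouse. They were chosen by read share, which is a barcode's count divided by the total of its sample. A member held at least 0.02% of the reads of cardiac Ccr2hi macrophages and at least 0.02% of those of cardiac Ccr2lo macrophages of its mouse. It held under 0.01% in renal M1 macrophages, renal M2 macrophages, monocytes, neutrophils, B cells and T cells of that mouse. There were 50 such barcodes in mouse 1, 54 in mouse 2 and 29 in mouse 3, and the 133 sequences were all different. They were drawn from 1869 placements of a barcode at 0.02% or more in both cardiac samples of a mouse, and from 327974 distinct sequences in the whole series.

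The data came from 3 male C57BL/6J recipients (CD45.2) and 24 samples of genomic DNA, 8 sorted populations per mouse with 1 sample each: cardiac Ccr2hi and Ccr2lo macrophages, renal M1 and M2 macrophages, and monocytes, neutrophils, B cells and T cells of the blood. All groups shared the same treatment. Stem cells of C57BL/6 bone marrow had been infected with the barcoding lentivirus pBC008 on day 5 of culture and sorted as GFP+LinSca1+cKit+ cells on day 4 after infection. Recipients aged 5 weeks were irradiated with 9 Gy over the whole body, received these cells with CD45.2+ LincKit+Sca1- rescue cells, and were sampled after 2 months. Host and rescue cells carry no barcode and give no reads, so the shares describe the barcoded cells alone, as amplified copies and not as numbers of cells. The labels do not give the number of cells sorted or the markers behind the names M1 and M2. Only barcode DNA was counted, so the sorted identities could not be set against marker genes.

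A lentiviral barcode is copied into the genome of the infected cell and passed to every descendant. Populations that carry the same barcode therefore share an infected ancestor, unless the same sequence entered more than 1 cell. Macrophages of the heart have mixed origins: some descend from embryonic progenitors and renew in place, others are replaced by blood monocytes, which use the chemokine receptor Ccr2 to leave the bone marrow. After whole-body irradiation, donor stem cells can contribute to both the Ccr2hi and the Ccr2lo subset.

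The barcodes are synthetic and have no position in a genome of their own, and the sites where the virus integrated were not analysed here. Each has 52 bases. In most of the reads, G or C at odd positions alternates with A or T at even positions, counted from the first base listed. This held for 82.2% to 96.4% of the reads of a sample, but for 36.5% to 64.8% of its distinct sequences. The sequences below are written in lower case, with capitals at bases that break this alternation. Names give the mouse number and a letter. The first set holds the 5 members of each mouse with the highest mean of the Ccr2hi and Ccr2lo shares, which shows how large such barcodes became.
1a: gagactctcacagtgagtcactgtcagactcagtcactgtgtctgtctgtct
1b: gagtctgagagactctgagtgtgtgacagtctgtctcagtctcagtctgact
1c: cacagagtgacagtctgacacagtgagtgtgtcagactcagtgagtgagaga
1d: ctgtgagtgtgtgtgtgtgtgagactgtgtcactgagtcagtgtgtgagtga
1e: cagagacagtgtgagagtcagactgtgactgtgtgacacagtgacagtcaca
2a: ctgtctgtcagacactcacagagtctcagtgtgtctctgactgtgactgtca
2b: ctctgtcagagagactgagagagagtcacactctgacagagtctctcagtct
2c: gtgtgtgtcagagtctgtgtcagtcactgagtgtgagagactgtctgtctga
2d: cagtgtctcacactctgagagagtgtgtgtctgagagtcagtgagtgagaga
2e: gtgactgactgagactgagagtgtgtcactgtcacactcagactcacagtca
3a: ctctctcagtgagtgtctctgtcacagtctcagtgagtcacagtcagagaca
3b: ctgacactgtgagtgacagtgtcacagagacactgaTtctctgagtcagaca
3c: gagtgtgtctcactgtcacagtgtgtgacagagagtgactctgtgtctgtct
3d: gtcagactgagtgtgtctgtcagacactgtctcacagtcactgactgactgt
3e: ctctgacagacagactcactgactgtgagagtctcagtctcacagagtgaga

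The next set shows the members at the ends of each comparison. Barcodes 1f, 2f and 3b (above) were the most shifted to Ccr2hi macrophages in their mouse, and 1g, 2e (above) and 3f were the most shifted to Ccr2lo macrophages. Barcodes 1h, 2g and 3g had the highest share outside the heart, and 1i, 2h and 3h lay just inside the 0.02% minimum.
1f: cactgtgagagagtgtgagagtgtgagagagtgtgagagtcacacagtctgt
1g: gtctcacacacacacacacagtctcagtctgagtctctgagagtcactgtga
1h: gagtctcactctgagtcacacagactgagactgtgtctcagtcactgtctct
1i: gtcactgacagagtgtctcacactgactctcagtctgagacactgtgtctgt
2f: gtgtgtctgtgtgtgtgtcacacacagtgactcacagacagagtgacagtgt
2g: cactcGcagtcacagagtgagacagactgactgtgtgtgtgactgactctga
2h: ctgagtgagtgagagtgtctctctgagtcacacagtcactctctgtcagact
3f: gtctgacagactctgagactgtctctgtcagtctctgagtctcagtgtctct
3g: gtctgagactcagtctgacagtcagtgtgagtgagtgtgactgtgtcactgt
3h: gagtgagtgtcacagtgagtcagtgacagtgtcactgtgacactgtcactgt

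Barcodes 1j, 2i and 3i are not members: they met every other condition and lay just outside the 0.02% minimum. Barcodes 1k and 2k, members found at high levels in another mouse, and 2j and 3j, the members of mice 2 and 3 with the lowest share outside the heart, were chosen after their values were seen.
1j: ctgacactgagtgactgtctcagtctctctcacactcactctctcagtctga
1k: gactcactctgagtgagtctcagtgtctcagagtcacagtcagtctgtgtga
2i: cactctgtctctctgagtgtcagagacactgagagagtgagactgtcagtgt
2j: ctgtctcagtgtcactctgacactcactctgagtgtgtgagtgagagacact
2k: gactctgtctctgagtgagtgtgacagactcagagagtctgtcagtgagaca
3i: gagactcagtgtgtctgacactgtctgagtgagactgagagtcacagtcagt
3j: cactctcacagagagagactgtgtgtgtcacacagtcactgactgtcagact

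Samples held 6808221 to 15745444 reads. The 0.02% minimum corresponded to between 2056 and 2750 reads in the 6 cardiac samples, and members had 2064 to 28474 reads in a cardiac sample. Counting error was small at this depth: the 95% Wilson interval of the smallest Ccr2hi share, that of 1i at 0.02002%, ran from 0.0192% to 0.0208%. The reads were produced by PCR without molecular identifiers, so such intervals cover counting error only. With a count of 0, a share as high as 1.91e-05% to 4.41e-05% remained possible by counting error alone, depending on the sample.

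Heart-restricted barcodes were few and small. They made up 6.55%, 9.73% and 5.26% of the barcodes at 0.02% or more in both cardiac samples of mice 1, 2 and 3, and 7.12% of all 1869. Together they held 2.46%, 2.27% and 1.08% of the Ccr2hi reads of mice 1, 2 and 3 (1.94% ± 0.748, SD, n = 3). They held 2.01%, 2.75% and 1.18% of the Ccr2lo reads (1.98% ± 0.789, SD, n = 3). Mouse 3 had the fewest members and the lowest sum in both subsets. These shares chose the members and are given as a description, without a test.

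The rest of the cardiac barcodes fell into 2 larger classes. Barcodes that reached 0.01% in renal M2 macrophages but not in blood or renal M1 macrophages numbered 333, 275 and 256 in the 3 mice and held 18.9% ± 2.21 of the Ccr2hi and 20.9% ± 1.67 of the Ccr2lo reads (SD, n = 3). Those that reached 0.01% in blood or in renal M1 macrophages numbered 380, 226 and 266 and held 66.2% ± 4.67 of the Ccr2hi and 61.8% ± 3.26 of the Ccr2lo reads (SD, n = 3). In numbers of barcodes the restricted class was therefore the smallest of the 3 in every mouse, and in reads by a wider margin.

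The mean of the 2 cardiac shares had a median of 0.0372% over the 133 members and ran from 0.0206% to 0.173%. Of the 133, 94 were under 0.05% and 3 reached 0.1%. In the mice the median was 0.0364% ± 0.00412 for restricted barcodes, 0.0527% ± 0.00172 for those shared with renal M2 macrophages alone and 0.109% ± 0.0132 for those shared with blood or renal M1 macrophages (SD, n = 3 each). The ranges over mice did not overlap, at 0.0337% to 0.0412%, 0.0508% to 0.0542% and 0.0938% to 0.119%. Among restricted barcodes 2.26% had a mean of 0.1% or more, against 32.0% of all cardiac barcodes. The rule used these shares, so no test was made of the sizes.

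The largest restricted barcode was 1a, with 0.240% of the Ccr2hi reads of mouse 1 (95% Wilson interval 0.237% to 0.243%) and 0.107% of its Ccr2lo reads. It ranked 60th among all barcodes of that Ccr2hi sample and 208th in the Ccr2lo sample. In the kidney of the same mouse it had 0.00905% of the renal M2 reads, just under the limit, and 6.87e-05% of the renal M1 reads. The 4 blood samples of mouse 1 together held 37 reads of it. Barcode 1b, the next, had 0.215% of the Ccr2hi and 0.0751% of the Ccr2lo reads, with 0.00718% in renal M2 macrophages. Both leading barcodes of mouse 1 were thus higher in Ccr2hi macrophages, and neither was absent from renal M2 macrophages, where 1a had 1329 and 1b 1054 reads.

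In mouse 2 the leader was 2a, with 0.104% of the Ccr2hi and 0.203% of the Ccr2lo reads, the opposite tilt to 1a. It ranked 165th in Ccr2hi and 93rd in Ccr2lo macrophages, the best rank of any member in a Ccr2lo sample. Its share in renal M2 macrophages was 0.00313%. Barcode 2b had 0.0712% of the Ccr2hi and 0.102% of the Ccr2lo reads but only 7.62e-05% of the renal M2 reads, 12 reads in all. It was highest outside the heart in T cells, with 0.000794%. Of the 5 leading members of mouse 2, 2b alone was under 0.001% in renal M2 macrophages.

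Mouse 3 had the smallest leaders. Barcode 3a held 0.0530% of the Ccr2hi and 0.101% of the Ccr2lo reads, with 0.00823% in renal M2 macrophages. Barcode 3b held 0.110% of the Ccr2hi and 0.0325% of the Ccr2lo reads. It had 4 reads in renal M2 macrophages, 7 in renal M1 macrophages and 4 in the blood samples together, so that 2 leading members of the same mouse differed widely in their kidney level. Barcode 3b breaks the alternation at 1 base.

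The Ccr2hi and Ccr2lo shares of a member lay mostly within 2-fold of each other. Of the 133 members 107 did so, 41 of 50 in mouse 1, 42 of 54 in mouse 2 and 24 of 29 in mouse 3 (80.8% ± 2.68, SD, n = 3 mice), against 84.5% of all cardiac barcodes. Over 2-fold higher in Ccr2hi macrophages were 15 members, 11.3% of them, against a background of 6.74% of all cardiac barcodes. Over 2-fold higher in Ccr2lo macrophages were 11 members, 8.27%, against 8.77%. Those 1869 include the members and met the same minimum in both subsets. That minimum limits how far the shares of a small barcode can differ, so the agreement is partly set by the rule. The mean percentage of members within 2-fold was 72.7% with a minimum of 0.01% in both cardiac samples and 88.9% with 0.05%. Each mouse has 1 sample of each subset and a barcode belongs to 1 mouse, so a single barcode's fold has no replicate and no test.

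By mouse, the larger folds were set beside those of all cardiac barcodes. In mouse 1, 8 of 50 members were over 2-fold higher in Ccr2hi and 1 in Ccr2lo macrophages, against 55 and 55 of all 763 cardiac barcodes. In mouse 2 it was 4 and 8 of 54 members, against 29 and 61 of 555, so that members and all cardiac barcodes tilted the same way. In mouse 3 it was 3 and 2 of 29 members, against 42 and 48 of 551. Neither direction prevailed over all members: 60 of 133 (45.1%) were higher in Ccr2hi macrophages, against 45.4% of all cardiac barcodes. The median log2 ratio of Ccr2hi over Ccr2lo share was -0.07, -0.13 and -0.14 in mice 1, 2 and 3, and its SD over the members of a mouse was 0.77, 0.86 and 0.73.

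The most uneven members of each mouse differed between the subsets by 2.36-fold (1g) to 4.29-fold (2e). Barcode 1f had 0.0755% of the Ccr2hi and 0.0205% of the Ccr2lo reads, a ratio of 3.68. Barcode 2e had 0.0284% of the Ccr2hi and 0.122% of the Ccr2lo reads, with the higher share in Ccr2lo macrophages, and it was the only member past 4-fold. In mouse 3 the ends were 3b, 3.39-fold higher in Ccr2hi macrophages, and 3f, 3.12-fold higher in Ccr2lo macrophages (0.0210% of the Ccr2hi and 0.0655% of the Ccr2lo reads). The Wilson intervals of these pairs of shares did not meet, but they cover counting error only, and the pairs were picked for their ratio. By contrast, 1k had 0.0538% of the Ccr2hi and 0.0528% of the Ccr2lo reads.

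Agreement between the subsets was set beside that of other cardiac barcodes under a common upper limit of size. Among barcodes with a mean cardiac share under 0.1%, 81.8% ± 4.11 of restricted barcodes were within 2-fold, against 81.4% ± 0.739 of those shared with renal M2 macrophages alone and 82.0% ± 2.10 of those shared with blood or renal M1 macrophages (SD, n = 3 mice each). The differences were smaller than the spread of the restricted barcodes between mice. Across these smaller barcodes the Pearson correlation of log10 shares was 0.295, 0.130 and 0.265 in mice 1, 2 and 3 for restricted barcodes (n = 48, 53 and 29). For all cardiac barcodes under 0.1% it was 0.349 to 0.455, above the value of the restricted barcodes in each mouse. These correlations are across barcodes of the same 2 libraries, over a range that the 0.02% minimum narrows, and are given as a description. Sizes were not matched below 0.1%. A mean cardiac share under 0.05% was held by 94 of these 130 restricted barcodes. It was held by 397 of 725 shared with renal M2 macrophages alone and 174 of 415 shared with blood or renal M1 macrophages. Neither the percentages within 2-fold nor the correlations therefore compare barcodes of like size.

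A different view comes from choosing barcodes in a single cardiac subset and reading them in the other. Barcodes with at least 0.02% of Ccr2hi reads and under 0.01% in the 6 populations outside the heart numbered 262 over the 3 mice, and 133 of them reached 0.02% in Ccr2lo macrophages as well. A further 53 lay between 0.01% and 0.02% there, 45 between 0.001% and 0.01%, and 31 below 0.001%, of which 8 had no read. The share that reached 0.02% was 49.9% ± 7.87 (SD, n = 3), against 85.8% ± 1.98 of the Ccr2hi barcodes that were also found at 0.01% outside the heart. Chosen in Ccr2lo macrophages, it was 46.6% ± 5.09, against 79.8% ± 5.33 (SD, n = 3 each). In each mouse and for either starting subset, barcodes low outside the heart were matched less often within the heart. They were also smaller, and so nearer to the 0.02% minimum. Over mice and starts their median share in the starting subset was 0.0286% to 0.0310%, against 0.0524% to 0.0636% for the others. Matching was less frequent below 0.04% in both groups. How much of the difference goes with size was not tested.

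The difference was also present among larger barcodes. Among those at 0.04% or more in Ccr2hi macrophages, 54 of 72 that were low outside the heart reached 0.02% in Ccr2lo macrophages, against 1296 of 1360 that were found outside it. Starting at 0.04% or more in Ccr2lo macrophages, the counts were 54 of 67 and 1315 of 1428. By mouse, 80.8%, 86.2% and 47.1% of the Ccr2hi barcodes low outside the heart were matched, against 96.5%, 95.9% and 93.2% of those found outside it. From the Ccr2lo start it was 76.2%, 82.4% and 83.3%, against 94.4%, 92.1% and 89.1%. For barcodes low outside the heart these percentages rest on small counts. From Ccr2hi macrophages they were 21 of 26, 25 of 29 and 8 of 17 in mice 1, 2 and 3. From Ccr2lo macrophages they were 16 of 21, 28 of 34 and 10 of 12. The order of the mice differed between the 2 starts and is not read as a trait of a mouse. The rule used these same shares, so the counts are not a test.

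Close to the 0.02% minimum, the barcodes just inside and just outside differed by less than their counting intervals. In mouse 1 the smaller cardiac share was 0.02002% for 1i and 0.0197% for the excluded 1j. In mouse 2 it was 0.0201% for 2h and 0.0198% for 2i. In mouse 3 it was 0.0202% for 3h and 0.0199% for 3i.

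Outside the heart, renal M2 macrophages were the population in which most members could still be seen. The median share there was 0.00591%, 0.00317% and 0.00421% in mice 1, 2 and 3, which corresponds to 868, 499 and 482 reads. In the other 5 populations the median member had 1 to 4 reads. Of the 133 members, 96 were at 0.001% or more in renal M2 macrophages, 21 in B cells, 1 in T cells, 1 in renal M1 macrophages and 0 in monocytes and neutrophils. Renal M2 macrophages held the highest share outside the heart for 101 members, and B cells for 13. The same 2 populations came first among all 1869 cardiac barcodes, of which 1709 reached 0.01% in renal M2 macrophages and 759 in B cells.

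Few levels outside the heart lay between 0.0001% and 0.001%. Over the 798 combinations of a member and a population outside the heart, 119 were at 0.001% or more, 658 were under 0.0001%, and only 21 lay between. In renal M2 macrophages 55 members were between 0.005% and 0.01%, 41 between 0.001% and 0.005%, 3 between 0.0001% and 0.001%, and 34 below 0.0001%. Most members were therefore either present in renal M2 macrophages with over 100 reads or nearly absent. Renal M2 macrophages gave 96 of the 119 higher levels. Their upper range is cut by the 0.01% limit of the rule. Among cardiac barcodes under 0.01% in blood and renal M1 macrophages, 27, 17 and 11 in mice 1, 2 and 3 had 0.005% to 0.01% there. Another 68, 42 and 40 had 0.01% to 0.02% and were excluded.

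The label of heart restriction thus rests on the 0.01% limit. By that measure 97 of the 133 members were at 0.001% or more in at least 1 population outside the heart, and the smaller cardiac share was a median of 8.79-fold the renal M2 share among members with renal M2 reads. For 45 members it was under 5-fold, and for 36 it was at least 100-fold or the renal M2 count was 0. All 133 had at least 1 read in some population outside the heart. Barcodes 1h, 2g and 3g were nearest to the limit, with renal M2 shares of 0.00968%, 0.00968% and 0.00974%. The nearest excluded barcodes of the 3 mice had 0.0101%, 0.0101% and 0.0102%.

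Samples of the other mice, which the rule did not use, give the level of the same sequences in animals where they were not selected. In renal M2 macrophages 72.2% of 133 readings in the member's own mouse were at 0.001% or more, against 7.14% of 266 in the other 2 mice. For B cells it was 15.8% in the own mouse, against 1.13% in the other mice. Medians were 0.00386% in own and 2.54e-05% in other mice for renal M2 macrophages, and 2.76e-05% in own and in other mice for B cells. Monocytes had a median of 1.95e-05% in own and in other mice, neutrophils 2.09e-05% in both, and renal M1 macrophages 2.33e-05% in own and 2.58e-05% in other mice. Reads in monocytes and neutrophils were thus at the level seen in the other animals. Values in renal M2 macrophages, and those of a minority of members in B cells, were above it.

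Most members with a B cell trace also had a renal M2 trace, as did most members in general. Of the 21 members at 0.001% or more in B cells, 20 were also at 0.001% or more in renal M2 macrophages, against 96 of all 133 (72.2%). An example is 1g, with 0.0433% of the Ccr2hi and 0.102% of the Ccr2lo reads, 0.00894% in renal M2 macrophages and 0.00611% in B cells (663 reads), against 3 reads in renal M1 macrophages. Another is 2d, with 0.0317% of the Ccr2hi and 0.120% of the Ccr2lo reads, 0.00283% in renal M2 macrophages and 0.00397% in B cells. The highest B cell share of a member was 0.00887%. Members summed to 0.182% ± 0.0717 of the renal M2 reads and 0.0288% ± 0.0196 of the B cell reads, against 0.000977% ± 0.000448 of the monocyte reads (SD, n = 3 each).

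Renal M1 macrophages held a single member above trace. Barcode 1f had 0.00878% of the renal M1 reads of mouse 1 (1022 reads), next to 0.00886% of its renal M2 reads. The other 132 members had under 0.001% there. In T cells the highest share of a member was 0.00104%, in mouse 2.

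A core of 32 members was under 0.0001% in all 6 populations outside the heart, with at most 10 reads in any of them: 8 in mouse 1, 16 in mouse 2 and 8 in mouse 3. Their mean cardiac share had a median of 0.0402% and ran from 0.0206% to 0.0715%, against a median of 0.0355% for the other 101 members. Within 2-fold between the cardiac subsets were 26 of the 32 (81.2%), against 81 of the 101 (80.2%). The largest was 3b. Barcode 2j had 0.0348% of the Ccr2hi and 0.0413% of the Ccr2lo reads (4316 and 4250 reads) and no read in renal M2 macrophages, where a count of 0 of 15745444 reads allows up to 1.91e-05%. Barcodes 3f and 3j also had no read in renal M2 macrophages, which allows up to 2.62e-05% in mouse 3. These upper limits cover the counting of reads only. The number of sorted cells is unknown, so the share among the cells of the tissue could be higher. Few cardiac barcodes had so little in renal M2 macrophages. Of the 997 barcodes at 0.02% in both cardiac samples and under 0.01% in blood and renal M1 macrophages, 34 were under 0.0001% in renal M2 macrophages, and 113, 120 and 109 in the 3 mice had a renal M2 share at or above their cardiac mean. The 34 meet the rule and are all members, so they give no separate background.

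The conditions of the rule differed in how much they removed. Of the 1869 cardiac barcodes, 1709 reached 0.01% in renal M2 macrophages, 759 in B cells, 402 in monocytes, 339 in renal M1 macrophages, 306 in neutrophils and 282 in T cells. Renal M2 macrophages alone excluded 864, B cells alone 17, monocytes and renal M1 macrophages 1 each, and neutrophils and T cells 0. Membership was thus set mostly by a low level in renal M2 macrophages.

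The same thresholds were applied to every other pair of populations as a comparison. With at least 0.02% in both and under 0.01% in the other 6, Ccr2hi with Ccr2lo gave the 133 members. Ccr2lo with renal M2 macrophages gave 98 (25, 17 and 56 in mice 1, 2 and 3), and Ccr2hi with renal M2 macrophages gave 46 (13, 14 and 19). In mice 1 and 2 the cardiac pair had the highest count of the 28 pairs, with 50 and 54 barcodes, but in mouse 3 it had 29 and the pair of Ccr2lo and renal M2 macrophages 56. No pair of monocytes with a cardiac subset gave more than 1 barcode. Barcodes in all 3 of Ccr2hi, Ccr2lo and renal M2 macrophages at 0.02%, and under 0.01% in the rest, numbered 714. Barcodes at 0.02% in a single population and under 0.01% in the other 7 numbered 76 for Ccr2hi, 88 for Ccr2lo and 158 for renal M2 macrophages.

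In the alternating pattern the members resembled all cardiac barcodes at 0.02% or more in both samples. Among all distinct sequences with a read in a cardiac sample, only 36.5% to 40.1% followed it, depending on the sample. Of the 133, 120 (90.2%) followed the alternating pattern throughout, against 90.7% of all cardiac barcodes, and 12 of the other 13 broke it at 1 base. The pattern fixes the G and C content at 50% of bases, and over all members it ran from 46.2% to 51.9%. Members of a mouse differed from each other at no fewer than 12 bases. From the nearest other barcode at 0.02% or more in a cardiac sample of the mouse they differed at a median of 15 bases.

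A single member lay within 2 mismatches of a more abundant cardiac barcode. The 2 sequences are shown because they differ only by G5A, counted from the first base listed, with the neighbour's base first.
member of mouse 1: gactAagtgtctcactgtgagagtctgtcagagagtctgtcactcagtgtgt
neighbour: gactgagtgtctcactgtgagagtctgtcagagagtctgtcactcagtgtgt

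The member held 0.0216% of the Ccr2hi and 0.0348% of the Ccr2lo reads, and the neighbour 0.271% and 0.233%. The neighbour was thus 12.6 times as abundant in Ccr2hi and 6.70 times in Ccr2lo macrophages, 20.5 times in renal M2 macrophages and 8918 times in B cells, where it held 0.493% of reads. The ratio was not constant over populations. Whether the member arose by an error from its neighbour was not tested.

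Some members recurred in another mouse. At 0.01% or more in a sample of another mouse were 10 of 133 (7.52%), against 13.9% of all cardiac barcodes. There were 5 members of mouse 1, 5 of mouse 2 and 0 of mouse 3, and none met the whole rule in a second mouse. In the other mice, 7 of the 10 were at 0.01% or more in Ccr2lo, 7 in renal M2 and 5 in Ccr2hi macrophages. In B cells it was 2, in neutrophils 1, and in monocytes, T cells and renal M1 macrophages 0. The same counts for the 259 recurring cardiac barcodes are not given, so this order is not read as particular to members. In their own mouse, 1709 of all 1869 cardiac barcodes reached 0.01% in renal M2 macrophages and 759 in B cells. For 4 of the 10 the highest share in the other mouse exceeded the cardiac shares in their own.

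Barcode 1k was the strongest of these. In mouse 1 it had 0.0538% of the Ccr2hi and 0.0528% of the Ccr2lo reads, 0.00811% of the renal M2 reads and 76 reads in the 4 blood samples together. In mouse 3 it had 0.249% of the Ccr2hi, 0.183% of the Ccr2lo, 0.0808% of the renal M2 and 0.324% of the B cell reads. The barcode was thus restricted by the rule in the mouse where it was rarer, and found in heart, kidney and blood in the mouse where it was more abundant. Barcode 2k had 0.0482% of the Ccr2hi and 0.0570% of the Ccr2lo reads of mouse 2 and 0.000108% of its renal M2 reads, and 0.153% of the renal M2 reads of mouse 1. Barcode 2a, the leader of mouse 2, had 0.0359% of the Ccr2lo and 0.00903% of the Ccr2hi reads of mouse 1. It also had 0.0187% of the renal M2 and 0.0184% of the B cell reads there. Unlike 1k, it was thus restricted in the mouse where its cardiac shares were higher. Barcode 1i, the smallest member of mouse 1 and under 0.0001% elsewhere in that animal, had 0.0183% of the Ccr2lo reads of mouse 2. Whether such sequences were carried by separate founder cells in the mice or moved between libraries was not tested.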

How the data were processed

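Barcodes were amplified from genomic DNA of sorted cells in 18 PCR cycles and 9 to 11 indexing cycles, per the labels' protocols. Each deposited table covers 1 sample and lists, per the file headers, sequences of 52 bases with their raw read counts, without normalisation. Trimming, filtering and counting by the authors are not described in the labels.

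Groups and mouse numbers were taken from the sample titles. Numbers pair the samples: the mean overlap of 2 populations (the smaller of the 2 shares, added up across barcodes) was 0.410 within a number and 0.0136 between numbers. No files agreed within sampling noise (chi-square per degree of freedom at least 83.4 in all 276 pairs). Depth was 6808221 to 15745444 reads.

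Counts were divided by sample totals and the thresholds applied within each mouse (Python 3.11.15, numpy 2.4.6, pandas 2.3.3, scipy 1.17.1). No test was made: the thresholds use all 8 populations, and each barcode belongs to 1 mouse. The selection step was run on simulated data and found every planted member. These were planted far from both limits, so the run does not tell how the rule behaves near them. Barcodes printed were the 5 largest members of each mouse, those most shifted between the cardiac subsets, the highest outside the heart, those beside the 0.02% minimum, and further ones named as chosen later. Members and lists were chosen with earlier results of these data known. Alternatives covered both thresholds, depth, merging of barcodes 1 mismatch from one 10 times as abundant, the alternating pattern, removal of barcodes 100 times as abundant in another mouse, a minimum of 10 reads and leaving out each mouse.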

Additional observations from a re-analysis of the deposited data

How the results depend on the processing

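The number of heart-restricted barcodes per mouse, 44.3 on average, followed the thresholds. It was 103 with a cardiac minimum of 0.01%, 5 with 0.05%, 25 with a limit of 0.005% elsewhere, 101 with 0.02% elsewhere, and 332 without the condition on renal M2 macrophages. Members then held 3.10%, 0.417%, 1.04% and 4.47% of Ccr2hi and 3.13%, 0.438%, 1.15% and 4.50% of Ccr2lo reads under the first 4 of these settings. Within 2-fold were 72.7% with a minimum of 0.01% and 88.9% with 0.05%. Members with reads in renal M2 macrophages, 97.1%, became 75.9% when counts under 10 reads were set to 0. At 0.01% in another mouse, 6.42% on average, were 16.7% with the 0.05% minimum. The alternating share, 90.1%, was 91.1% with 0.01%, 94.4% with 0.05%, 92.5% with 0.02% elsewhere and 90.9% after merging. These last settings, and leaving out recurring members, were added after the data were seen. The other 63 of 84 values stayed within the spread between mice or within 1.5 times the count. Leaving out each mouse gave 39.5 to 52 members, 1.68% to 2.37% of Ccr2hi and 1.59% to 2.38% of Ccr2lo reads, 79.9% to 82.4% within 2-fold, 95.6% to 99.1% with renal M2 reads, 4.63% to 9.63% recurring and 89.8% to 90.4% alternating. No paired analysis was possible because each member lies in 1 mouse, where its Ccr2hi and Ccr2lo shares are a single pair. Sums over members, which could be paired over the 3 mice, were not tested, since those shares chose the members. The number of sorted cells is unknown, so how far absence outside the heart reflects too few cells was not tested.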
